A study of Mus musculus with 33 samples.

Results

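The change of the dexamethasone effect with time was measured in quadriceps muscle of wild-type (WT) mice, in 17 of the 33 RNA-seq libraries of the series. All animals were adult C57BL6 males that had 1 intraperitoneal injection, of dexamethasone sodium phosphate at 20 mg/kg or of saline. There were 5 dexamethasone (Dex) libraries and 4 saline libraries at 24 h, and 5 Dex libraries and 3 saline libraries at 3 h. The other 16 libraries came from Actn3 null (KO) mice in the same 4 treatment and time groups (5 Dex and 3 saline at each time) and enter only where KO is named. For each gene the Dex effect, Dex over saline, was taken at 24 h and at 3 h. The quantity studied is the 24 h effect minus the 3 h effect, named the time contrast below, so that a negative value means that the gene stood lower relative to saline at 24 h than at 3 h. The labels do not say whether each library is a separate animal, so p-values measure the spread between libraries.

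Dexamethasone is a synthetic glucocorticoid that enters cells and binds the glucocorticoid receptor, which then moves to the nucleus. There the receptor switches on genes next to its binding sites and restrains the action of other factors, NF-kB and AP-1 among them. In skeletal muscle, glucocorticoids are known for raising ubiquitin ligases and mTOR inhibitors, for loss of muscle protein and for lower insulin sensitivity. They also reset the peripheral clock and act on the vessel, connective tissue and immune cells of the muscle.

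WT libraries held 20134795 to 38500667 gene counts, and 15594 to 16111 genes had at least 1 count. Fold changes were tested over 13955 genes with edgeR's quasi-likelihood test, and a change was called at a Benjamini-Hochberg adjusted p under 0.05. Levels are in CPM, counts scaled to the library size after TMM scaling, a unit that compares libraries and not genes of different length. Actn3, the gene for the fast-fibre Z-disc protein alpha-actinin-3 that the KO mice lack, had 6959 to 9704 CPM in WT libraries and 31.9 to 84.1 CPM in KO libraries. Summed over 14 genes of mature muscle fibres, the level was 182900 to 214400 CPM in WT Dex 24 h, 172300 to 215900 in saline 24 h, 196700 to 244800 in Dex 3 h and 191900 to 213300 in saline 3 h, so the groups overlapped. In bulk muscle, fewer cells of a type and less RNA per cell cannot be told apart. Among the genes named here, WT Dex 3 h replicate 2 and WT Dex 24 h replicate 5 stood apart most often. The time contrast was called for 2388 genes in all, for 2166 without the first and for 2751 without the second of these libraries. Over all tested genes, pairs with WT Dex 24 h replicate 5 differed by a chi-square per degree of freedom of 89.5 to 128. Other pairs of that group had 13.1 to 28.1. Pairs with WT saline 24 h replicate 4 had 71.1 to 88.1, and other pairs of its group 23.9 to 25.9. Both libraries carry labels of a separate number series, which among WT libraries occurs at 24 h only. The WT Dex 3 h group, outside that series, was also divided. Pairs of its replicates 2 or 5 with replicates 1, 3 or 4 had 46.4 to 55.4. Pairs among replicates 1, 3 and 4 had 12.7 to 21, and the pair of replicates 2 and 5 had 32.7.

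At 24 h, 1919 genes were called (13.8% of those tested), of which 945 rose and 974 fell. At 3 h, 2084 genes were called (14.9%), of which 945 rose and 1139 fell. Both times called 405 genes, which is 21.1% of the 24 h calls and 19.4% of the 3 h calls. Of these 405, 192 moved the same way and 213 moved in opposite ways. The median absolute log2 fold change was 0.56 among the 24 h calls and 0.821 among the 3 h calls. These medians cover called genes only, and most genes called at one time were not called at the other. Saline had 4 libraries at 24 h and 3 at 3 h, which also bears on how large a change must be to be called. At least 2-fold changes were called for 331 genes at 24 h and 812 genes at 3 h. The count at 24 h was 1257 without WT saline 24 h replicate 3.

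The time contrast itself was called for 2388 genes (17.1%), with 1240 (8.89%) higher and 1148 (8.23%) lower at 24 h than at 3 h relative to saline. Over all 13955 genes its median was −0.014 on the log2 scale. Genes were sorted by their calls into classes, which describe the calls and carry no test of their own. Turned genes, 213 of them, were called at both times with opposite signs and called in the time contrast. Faded genes numbered 1062, called at 3 h, not called at 24 h and called in the time contrast against the sign of the 3 h effect. Late genes numbered 737, not called at 3 h and called at 24 h and in the time contrast with the same sign. Another 159 genes persisted, called at both times in the same direction with no call in the time contrast. Of the genes that kept their sign and were called in the time contrast, 30 weakened and 3 strengthened. The time contrast was also called for 343 genes in none of these classes. A further 1394 genes were called at 1 time only with no call in the time contrast, so for them a missing call at the other time does not show that the effects differed. Without WT saline 24 h replicate 2 the number of turned genes was 138. The edges of the classes rest on the call threshold. Gbp2 is counted as faded with an adjusted p of 0.0557 at 24 h, and Gadd45g as weakened with an adjusted p of 0.0467.

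**Figure D1:**
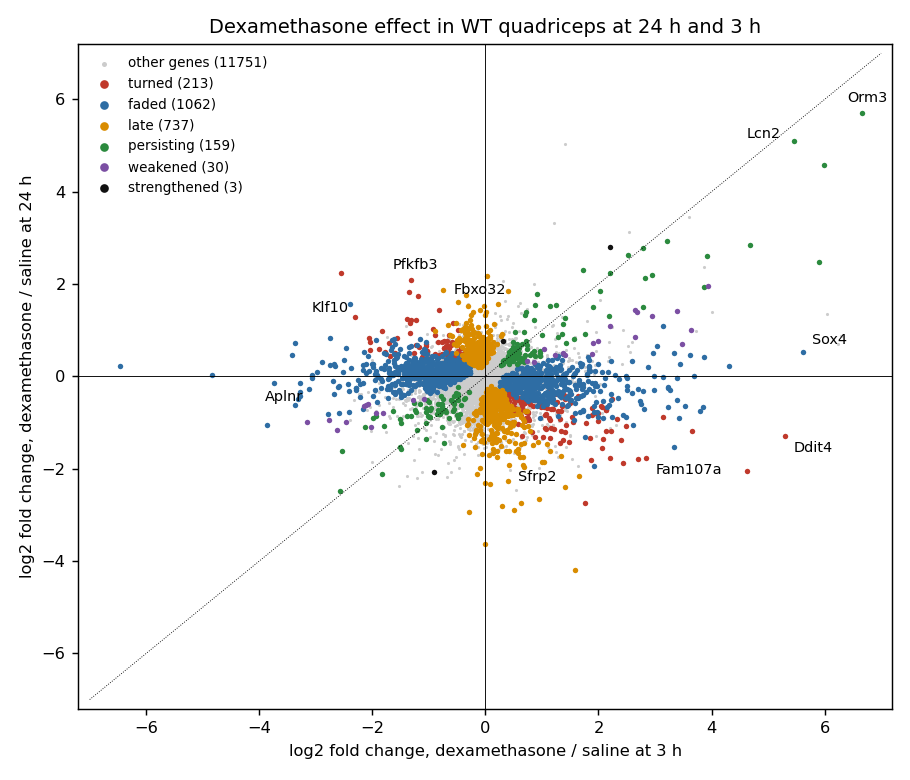
Log2 fold change of dexamethasone over saline in WT quadriceps at 24 h (vertical axis) against that at 3 h (horizontal axis) for the 13955 genes tested, coloured by class, with the number of genes of each class in the legend and the dotted line marking equal effects. The 1062 faded genes lie along the horizontal axis, the 737 late genes along the vertical axis, the 213 turned genes in the upper left and lower right, and the 159 persisting genes near the dotted line.

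Most turned genes, 128 of 213, rose at 3 h and were below saline at 24 h. Their median log2 effect was −0.715 at 24 h and 1.024 at 3 h. They include mTOR and hypoxia regulators, amino acid carriers and macrophage genes. Ddit4 (also known as Redd1), an inhibitor of mTORC1 and a known glucocorticoid target, had the largest time contrast of the named genes. At 24 h its level was 5.32, 6.23, 3.26, 4.3 and 8.25 CPM in Dex and 10.4, 18.7, 5.92 and 19.1 CPM in saline libraries. At 3 h it was 251, 312, 261, 279 and 273 CPM in Dex and 4.3, 5.15 and 11.6 CPM in saline libraries. All 5 Dex libraries at 3 h stood far above every other library, while at 24 h the Dex and saline groups overlapped. The log2 effect was −1.29 ± 0.286 at 24 h and 5.30 ± 0.377 at 3 h (± SE), and the time contrast was −6.59 ± 0.459 (adjusted p = 4.92e-12).

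Fam107a, an actin-associated protein induced by glucocorticoids in brain, turned with little spread. Its 24 h levels were 2.08, 3.06, 1.76, 2.36 and 2.38 CPM in Dex and 7.7, 9.19, 7.46 and 7.2 CPM in saline. Its 3 h levels were 54.3, 56.8, 50, 55.6 and 53 CPM in Dex and 7.43, 7.3 and 7.78 CPM in saline. The groups did not overlap at either time, and the saline libraries of both times overlapped. The log2 effect was −1.77 ± 0.158 at 24 h and 2.84 ± 0.169 at 3 h, a time contrast of −4.61 ± 0.229 (adjusted p = 1.5e-15). Hif3a, a member of the hypoxia-inducible factor family that can restrain the other members, had 1.33 to 2.15 CPM in Dex and 3.32 to 7.7 CPM in saline at 24 h, and 14.8 to 20.5 CPM in Dex and 3.2 to 5.3 CPM in saline at 3 h. Its time contrast was −3.61 ± 0.31 (adjusted p = 2.6e-10). Slc7a8 encodes LAT2, an exchanger of large neutral amino acids. At 24 h Slc7a8 had 9.03 to 13 CPM in Dex and 15.4 to 40.6 CPM in saline, and at 3 h 138 to 183 CPM in Dex and 28.9 to 32 CPM in saline. The time contrast of Slc7a8 was −3.77 ± 0.274 (adjusted p = 9.39e-12).

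The transcription factor Foxo1, which drives atrophy genes in muscle, turned as well. At 24 h Foxo1 had 26.2, 30, 26.6, 24.8 and 22.7 CPM in Dex and 49.6, 52.1, 33.8 and 27.9 CPM in saline libraries. At 3 h Foxo1 had 123, 124, 108, 111 and 123 CPM in Dex and 46.7, 52.8 and 38.6 CPM in saline libraries. Every Dex library at 3 h was above every saline library, and at 24 h the highest Dex library overlapped the lowest saline library. The effect was −0.65 ± 0.138 at 24 h and 1.36 ± 0.157 at 3 h on the log2 scale, with a time contrast of −2.01 ± 0.208 (adjusted p = 1.38e-08). Ppara, the nuclear receptor of fatty acid oxidation, had effects of −0.71 ± 0.204 at 24 h and 1.20 ± 0.228 at 3 h. Ucp2, a carrier of the inner mitochondrial membrane, had effects of −0.69 ± 0.142 at 24 h and 1.88 ± 0.164 at 3 h. Slc25a30, another mitochondrial carrier, had −1.18 ± 0.297 at 24 h and 2.22 ± 0.346 at 3 h, and its groups overlapped at 24 h. Slc10a6, a transporter of sulfated steroids, had −1.07 ± 0.253 and 2.49 ± 0.266 at the same times, the transcription factor Tfcp2l1 −0.98 ± 0.202 and 1.55 ± 0.232, and the secreted metalloproteinase Adamts14 −0.98 ± 0.249 and 1.98 ± 0.24.

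Macrophage genes were among those that were high at 3 h and low at 24 h. Cd163, the macrophage scavenger receptor for haemoglobin bound to haptoglobin, had 24.8, 27.3, 23.3, 24.9 and 20.2 CPM in Dex and 48.4, 66.1, 39.3 and 37.8 CPM in saline at 24 h. At 3 h Cd163 had 44.5, 56.7, 58.9, 59.3 and 64.9 CPM in Dex and 39.7, 42 and 39.8 CPM in saline. Dex was below saline at 24 h and above it at 3 h, without overlap at either time. The effects were −0.99 ± 0.129 at 24 h and 0.49 ± 0.142 at 3 h, and the time contrast −1.48 ± 0.193 (adjusted p = 9.95e-07). Cd14, a co-receptor for bacterial lipopolysaccharide, had −1.19 ± 0.295 at 24 h and 1.34 ± 0.315 at 3 h. WT Dex 3 h replicate 2 had 16 CPM of Cd14 and the other Dex 3 h libraries 4.24 to 5.17 CPM.

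Per1, a repressor of the circadian clock and a direct receptor target, turned between the times. Its level at 24 h was 44.3, 46.5, 48.2, 37.4 and 46 CPM in Dex and 116, 81.2, 88.5 and 63 CPM in saline. At 3 h it was 132, 112, 117, 135 and 114 CPM in Dex and 73.3, 75.1 and 75.8 CPM in saline. Dex and saline libraries were apart at both times, with Dex below saline at 24 h and above it at 3 h. The effect was −0.97 ± 0.179 at 24 h and 0.71 ± 0.199 at 3 h, and the time contrast −1.68 ± 0.269 (adjusted p = 2.55e-05). The promoters of Per1 and of Irs1 (below) are shown because these genes turned in opposite directions and both windows hold the E-box CACGTG, the sequence bound by the clock activators and by other basic helix-loop-helix factors. The windows reach from 250 bases before to 50 bases after the RefSeq start (GRCm38.p6), 5′ to 3′ on the gene's strand, with the E-box in capitals. The letters CACGTG read the same on both strands and occur in 7.24% of the 27025 promoters of the RefSeq table. Per1 lies on the + strand, and its window is chr11:69098699-69098998, with the E-box 166 bases before the start. Irs1 lies on the − strand, and its window is chr1:82291390-82291689, with the E-box 115 bases before the start. A match describes these letters only and does not show binding.
Per1: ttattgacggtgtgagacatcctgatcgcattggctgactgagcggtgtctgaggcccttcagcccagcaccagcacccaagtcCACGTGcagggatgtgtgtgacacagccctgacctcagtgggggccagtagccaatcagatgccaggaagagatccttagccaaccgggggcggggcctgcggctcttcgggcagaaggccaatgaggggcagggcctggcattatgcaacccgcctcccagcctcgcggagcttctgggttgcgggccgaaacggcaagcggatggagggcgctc
Irs1: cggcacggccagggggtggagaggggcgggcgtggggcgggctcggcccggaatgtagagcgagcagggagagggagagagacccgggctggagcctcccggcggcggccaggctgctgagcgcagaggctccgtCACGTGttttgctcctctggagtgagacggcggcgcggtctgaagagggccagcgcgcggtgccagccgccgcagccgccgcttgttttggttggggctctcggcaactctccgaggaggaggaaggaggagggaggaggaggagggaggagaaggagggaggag

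The other 85 turned genes fell at 3 h and were above saline at 24 h. Their median log2 effect was 0.558 at 24 h and −0.693 at 3 h. Among them are kinases and enzymes of glycolysis and insulin signalling, muscle transcription factors and TGF-beta regulators. Pfkfb3 makes fructose 2,6-bisphosphate, which speeds glycolysis. At 24 h Pfkfb3 had 1340, 1757, 1910, 1679 and 762 CPM in Dex and 235, 217, 572 and 382 CPM in saline. At 3 h Pfkfb3 had 161, 188, 147, 135 and 90.6 CPM in Dex and 405, 405 and 274 CPM in saline. Neither time showed overlap, and WT Dex 24 h replicate 5 was the lowest of its group. The log2 effect was 2.08 ± 0.36 at 24 h and −1.32 ± 0.361 at 3 h, a time contrast of 3.41 ± 0.506 (adjusted p = 8.18e-06).

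Irs1, the docking protein through which the insulin and IGF1 receptors signal, had 107, 100, 117, 107 and 93.1 CPM in Dex and 69.3, 68.5, 63.1 and 52.7 CPM in saline at 24 h. At 3 h it had 48.3, 78.4, 71.1, 49.7 and 45.4 CPM in Dex and 85.1, 93.5 and 79.7 CPM in saline. Dex and saline were apart at both times, with WT Dex 3 h replicate 2 close below the lowest saline library. The effect was 0.73 ± 0.153 at 24 h and −0.56 ± 0.162 at 3 h, and the time contrast 1.28 ± 0.222 (adjusted p = 8.3e-05). Irs1 shares 30.9% of its exon bases with another annotated gene, and reads of such pairs cannot be told apart in these unstranded libraries.

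Pim1, a serine/threonine kinase, had 19.5 to 48.6 CPM in Dex and 6.88 to 12.9 CPM in saline at 24 h, and 4.44 to 7.22 CPM in Dex and 12.7 to 16.5 CPM in saline at 3 h. Its time contrast was 3.17 ± 0.299 (adjusted p = 2.06e-09). Klf10, a TGF-beta inducible zinc finger factor, had a time contrast of 3.58 ± 0.447, from effects of 1.28 ± 0.301 at 24 h and −2.30 ± 0.327 at 3 h, with overlap at 24 h. Tgif1, a co-repressor of TGF-beta target genes, had effects of 1.16 ± 0.144 and −1.34 ± 0.158 at those times without overlap. Eda2r, a receptor of the TNF receptor family and a p53 target, had 1.74 ± 0.236 at 24 h and −1.19 ± 0.245 at 3 h, also without overlap. Nr1d1 (REV-ERB alpha), a repressor of the clock gene Arntl, had 220 to 370 CPM in Dex and 93 to 191 CPM in saline at 24 h, and 70 to 114 CPM in Dex and 185 to 286 CPM in saline at 3 h. Its time contrast was 2.54 ± 0.31 (adjusted p = 3.02e-07), and its level in saline alone was also lower at 24 h than at 3 h, by a log2 change of −0.97 (adjusted p = 0.0477).

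Single muscle and vessel regulators were among the turned genes. The homeodomain factor Six4, which acts on muscle genes, had 49.7, 55.6, 64.3, 55.8 and 34.7 CPM in Dex and 41.4, 34.5, 27.9 and 21.6 CPM in saline at 24 h. At 3 h Six4 had 12.1, 10.2, 9.07, 10.6 and 12.6 CPM in Dex and 36.7, 40.9 and 29.2 CPM in saline. The groups were apart at 3 h and overlapped at 24 h, and the time contrast was 2.43 ± 0.237 (adjusted p = 4.15e-09). Myf6, a myogenic regulatory factor of mature fibres, had 0.46 ± 0.144 at 24 h and −0.83 ± 0.154 at 3 h. Kdr, the main signalling receptor for VEGF on endothelial cells, had 60.4 to 78.4 CPM in Dex and 39.3 to 52.9 CPM in saline at 24 h, and 16.3 to 24.7 CPM in Dex and 65.1 to 78.4 CPM in saline at 3 h. The time contrast of Kdr was 2.30 ± 0.193 (adjusted p = 1.77e-10), with a change of −0.61 over time in saline (adjusted p = 0.0463).

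**Figure D2:**
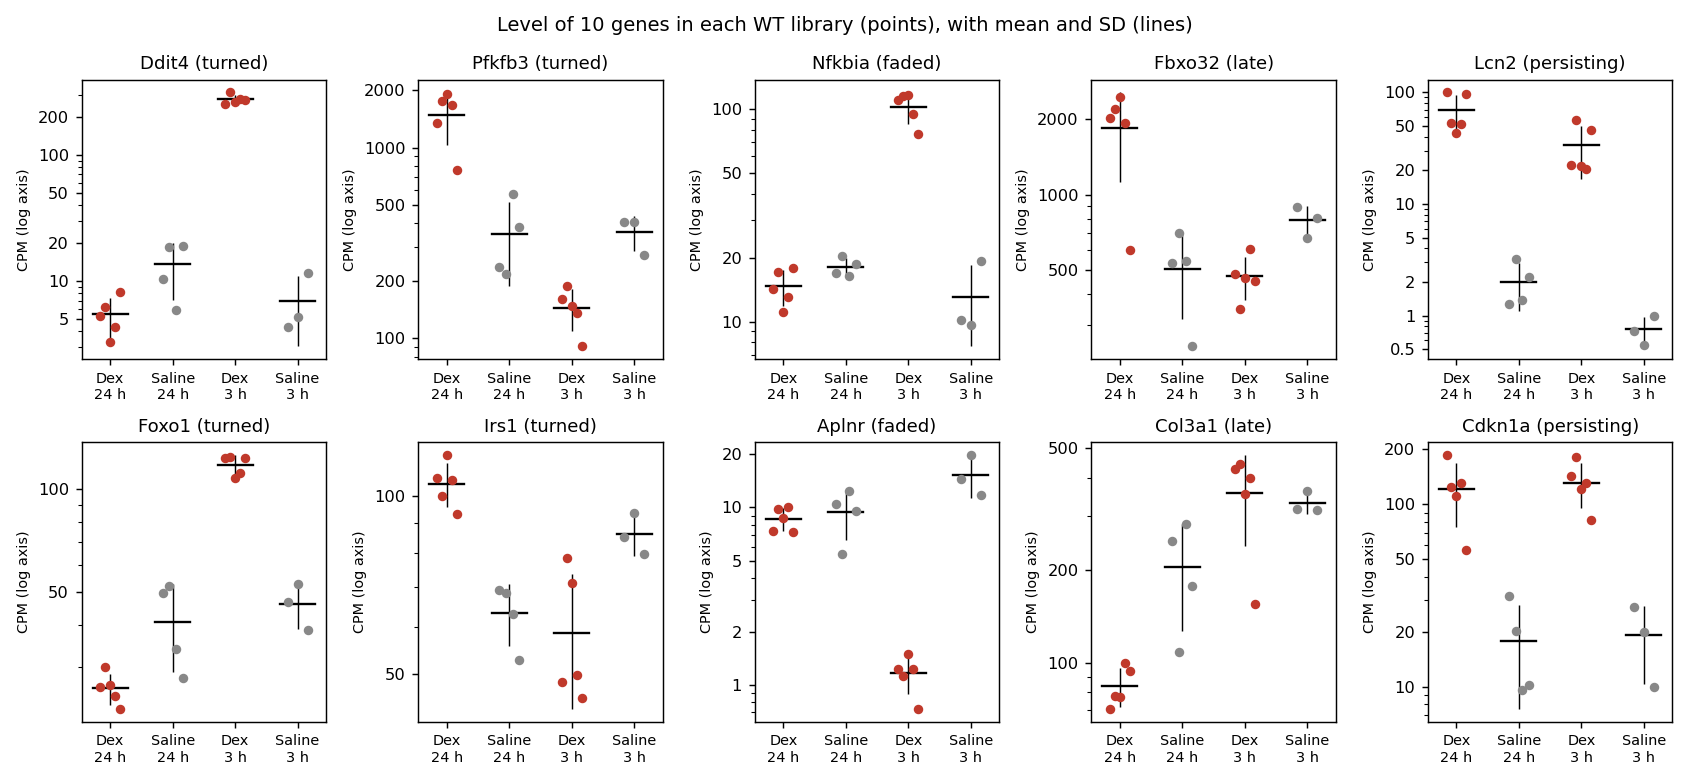
Level in CPM (log axis) of 10 genes in each WT library, by treatment and time, with the mean as a horizontal line and the SD as a vertical line (n = 5 Dex 24 h, 4 saline 24 h, 5 Dex 3 h, 3 saline 3 h). Ddit4 and Foxo1 are above saline at 3 h and lower at 24 h, Pfkfb3 and Irs1 the reverse, Nfkbia and Aplnr part from saline at 3 h and overlap it at 24 h, Col3a1 parts from saline at 24 h and overlaps it at 3 h, 4 of 5 Fbxo32 Dex libraries are above saline at 24 h, and Lcn2 and Cdkn1a are above saline at both times.

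Faded genes that rose at 3 h numbered 472, with a median log2 effect of −0.145 at 24 h and 0.961 at 3 h. They include inhibitors of inflammatory signalling, small GTPases and amino acid genes. Nfkbia encodes IkB alpha, which holds NF-kB in the cytoplasm. At 24 h Nfkbia had 14.3, 17.2, 11.1, 13.1 and 17.9 CPM in Dex and 17, 20.4, 16.4 and 18.8 CPM in saline. At 3 h it had 111, 115, 117, 95.4 and 76.2 CPM in Dex and 10.2, 9.67 and 19.2 CPM in saline. All 3 h Dex libraries stood above all others, and the 24 h groups overlapped. The effect was −0.30 ± 0.152 at 24 h (adjusted p = 0.197) and 2.98 ± 0.185 at 3 h, and the time contrast −3.28 ± 0.232 (adjusted p = 6.34e-12). Zfp36, which binds AU-rich elements and speeds the decay of cytokine mRNAs, had 10 to 17.2 CPM in Dex and 14.2 to 29 CPM in saline at 24 h, and 131 to 204 CPM in Dex and 21.4 to 31.5 CPM in saline at 3 h. Its time contrast was −3.34 ± 0.342 (adjusted p = 1.08e-08).

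The transcription factor Sox4 had the largest 3 h effect of the named faded genes, 5.62 ± 0.363, with 0.54 ± 0.327 at 24 h. Sox4 had 177, 116, 197, 160 and 60.4 CPM in the Dex libraries at 3 h and no more than 3.61 CPM in any other WT library. Of its exon bases 54.6% are shared with another annotated gene, so the reads of the pair cannot be told apart. The GTPase Rhob had effects of −0.22 ± 0.184 at 24 h and 3.24 ± 0.23 at 3 h. Adamts15, a secreted metalloproteinase of the matrix, had −0.04 ± 0.23 and 3.39 ± 0.246, the calcium sensor of vesicle fusion Doc2b 0.41 ± 0.19 and 3.86 ± 0.232, and Odf3l2 −0.66 ± 0.281 and 3.86 ± 0.365 at the same times. Doc2b also rose over time in saline alone, by a log2 change of 1.1 (adjusted p = 0.0319). In amino acid metabolism, Slc7a5, the LAT1 carrier of large neutral amino acids, had effects of 0.05 ± 0.219 at 24 h and 1.56 ± 0.24 at 3 h. Glul, glutamine synthetase, had −0.51 ± 0.218 at 24 h (adjusted p = 0.123) and 1.04 ± 0.247 at 3 h (adjusted p = 0.00248).

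Arl4d, a small GTPase of the ARF family, had 4.57, 5.99, 2.51, 4.91 and 4.33 CPM in Dex and 3.52, 3.9, 3.02 and 5.01 CPM in saline at 24 h. At 3 h Arl4d had 52.4, 80.1, 54.3, 61.2 and 54.3 CPM in Dex and 2.89, 2.7 and 3.55 CPM in saline. The 3 h Dex libraries were apart from all others and the 24 h groups overlapped. The time contrast was −4.09 ± 0.299 (adjusted p = 9.39e-12). Its promoter is shown as that of a strong transient gene whose window holds the full cyclic AMP response element TGACGTCA, in capitals, 26 bases before the RefSeq start. These letters read the same on both strands and occur in 1.88% of the 27025 promoters. The window is chr11:101665291-101665590 on the + strand (RefSeq, GRCm38.p6). The palindromic glucocorticoid receptor element was found on either strand in 0.0629% of all promoters of this length and in none of these 3 windows.
Arl4d: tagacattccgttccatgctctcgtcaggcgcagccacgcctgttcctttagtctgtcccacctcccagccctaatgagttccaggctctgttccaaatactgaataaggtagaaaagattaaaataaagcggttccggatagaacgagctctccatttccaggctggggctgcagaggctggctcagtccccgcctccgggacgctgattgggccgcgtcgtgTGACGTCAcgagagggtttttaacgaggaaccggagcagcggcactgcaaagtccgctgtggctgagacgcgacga

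Faded genes that fell at 3 h were more numerous, 590, with a median log2 effect of 0.1 at 24 h and −0.949 at 3 h. The endothelial genes Bcl6b, Aplnr and Pcdh12 are among the 10 named for the largest time contrasts. Aplnr, the apelin receptor of vascular endothelium, had 7.4, 9.75, 8.75, 10 and 7.29 CPM in Dex and 10.5, 5.48, 12.3 and 9.57 CPM in saline at 24 h. At 3 h Aplnr had 1.23, 1.12, 1.49, 1.22 and 0.732 CPM in Dex and 14.4, 19.7 and 11.8 CPM in saline. No Dex library at 3 h came near any other library, and the 24 h groups overlapped. The effect was −0.13 ± 0.184 at 24 h (adjusted p = 0.698) and −3.73 ± 0.222 at 3 h, with a time contrast of 3.60 ± 0.293 (adjusted p = 1.03e-10). Bcl6b, a transcriptional repressor expressed in endothelium, had effects of 0.73 ± 0.273 at 24 h and −3.37 ± 0.329 at 3 h. Pcdh12, a protocadherin of endothelial cells, had 0.31 ± 0.25 and −2.88 ± 0.285, and Egfl7, a secreted endothelial factor, 0.16 ± 0.119 and −1.52 ± 0.131 at the same times. Heyl, a Notch target, had 0.15 ± 0.187 at 24 h and −1.52 ± 0.207 at 3 h. B3galt2, a galactosyltransferase, had 0.46 ± 0.214 and −3.42 ± 0.251, and Rassf9 0.03 ± 0.21 and −3.06 ± 0.258. The level of B3galt2 in saline alone was also lower at 24 h than at 3 h, by a log2 change of −1.04 (adjusted p = 0.0319).

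Inflammatory genes that fell at 3 h and were not called at 24 h include the interferon factor Irf1, with 9.18 to 11.3 CPM in Dex and 8.37 to 12.2 CPM in saline at 24 h, and 2.85 to 4.28 CPM in Dex and 11.9 to 12.9 CPM in saline at 3 h. The time contrast of Irf1 was 1.95 ± 0.164 (adjusted p = 1.92e-10). The adhesion molecule Icam1 had effects of 0.12 ± 0.222 at 24 h and −1.70 ± 0.249 at 3 h. Nos2, the inducible nitric oxide synthase, had 0.36 ± 0.184 and −1.62 ± 0.211, and the interferon-induced Ifit2 −0.17 ± 0.116 and −1.11 ± 0.128 at the same times. Bhlhe40, a clock repressor, had 144 to 173 CPM in Dex and 139 to 159 CPM in saline at 24 h, and 32.8 to 47.7 CPM in Dex and 109 to 143 CPM in saline at 3 h. The orphan nuclear receptor Nr4a3 is among the largest fades, with a time contrast of 3.97 ± 1.04 (adjusted p = 0.00689). Its saline 24 h libraries had 0.365 to 0.863 CPM and its saline 3 h libraries 56.4, 7.22 and 86.1 CPM, a fall of 6.25 on the log2 scale in saline alone. The Nr4a3 call was lost with limma-voom (adjusted p = 0.105) and without the 5 libraries whose labels carry a separate number series, WT saline 24 h replicate 4, WT Dex 24 h replicate 5 and 3 KO libraries (0.061).

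Late genes that rose numbered 381, with a median log2 effect of 0.479 at 24 h and −0.138 at 3 h. They include single ubiquitin ligases, proteasome subunits, insulin pathway genes and chaperones. In the time contrast 2 of 32 proteasome genes (6.25%) and 2 of 21 heat shock genes (9.52%) were called higher, beside 8.89% of all genes. Fbxo32, the muscle ubiquitin ligase atrogin-1 and a classic atrophy marker, had 2035, 2192, 2459, 1929 and 603 CPM in Dex and 533, 700, 543 and 247 CPM in saline at 24 h. At 3 h Fbxo32 had 482, 350, 464, 606 and 452 CPM in Dex and 896, 674 and 806 CPM in saline. At 24 h 4 of the 5 Dex libraries were above all saline libraries, and WT Dex 24 h replicate 5 lay within the saline range. At 3 h every Dex library was below every saline library, a difference that was not called. The effect was 1.87 ± 0.295 at 24 h and −0.75 ± 0.299 at 3 h (adjusted p = 0.093), and the time contrast 2.62 ± 0.415 (adjusted p = 2.26e-05). Fbxo30, the ligase MUSA1, had effects of 0.79 ± 0.137 at 24 h and −0.27 ± 0.145 at 3 h.

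Ddit4l (Redd2), the second REDD-type inhibitor of mTORC1, ran opposite to Ddit4. At 24 h Ddit4l had 461, 551, 521, 489 and 219 CPM in Dex and 208, 230, 230 and 202 CPM in saline. At 3 h it had 151, 147, 214, 226 and 141 CPM in Dex and 224, 217 and 213 CPM in saline. Replicate 5 of WT Dex 24 h lay within the saline range and the other Dex 24 h libraries above it, while the 3 h groups overlapped. The time contrast of Ddit4l was 1.35 ± 0.358 (adjusted p = 0.00747). Pik3ca, the p110 alpha catalytic subunit of PI3-kinase, had effects of 0.68 ± 0.112 at 24 h and 0.08 ± 0.121 at 3 h without overlap at 24 h. Slc43a1, the LAT3 carrier of branched-chain amino acids, had 1.85 ± 0.303 at 24 h and 0.39 ± 0.325 at 3 h.

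The proteasome ATPase subunits Psmc2 and Psmc6 had small late effects. For Psmc2 they were 0.39 ± 0.0712 at 24 h and 0.04 ± 0.0772 at 3 h, with 151 to 184 CPM in Dex and 117 to 137 CPM in saline at 24 h. Without WT saline 3 h replicate 1 the time contrast of Psmc2 was 0.31 (adjusted p = 0.0678). For Psmc6 they were 0.34 ± 0.0926 at 24 h and −0.17 ± 0.0998 at 3 h. Slc40a1, the iron exporter ferroportin, had 137, 127, 124, 116 and 116 CPM in Dex and 54.9, 46.9, 42.5 and 52.3 CPM in saline at 24 h. At 3 h Slc40a1 had 43.1, 44.3, 41.7, 49.8 and 52.9 CPM in Dex and 56, 61.8 and 49.1 CPM in saline. The Dex 24 h libraries were apart from all other WT libraries, and the time contrast was 1.6 ± 0.167 (adjusted p = 1.79e-08). The TNF family receptor Tnfrsf19 had a time contrast of 2.10 ± 0.296 (adjusted p = 3.81e-06), and the membrane protein Tmem100 of 1.66 ± 0.305 (adjusted p = 0.000173). Hspa1a, the inducible HSP70, had 2.83 to 7.4 CPM in Dex and 0.987 to 1.47 CPM in saline at 24 h, with a time contrast of 2.15 ± 0.7 (adjusted p = 0.0306). At 3 h Hspa1a had 1.46 to 8.6 CPM in Dex and 2.66 to 6.67 CPM in saline. Its log2 change from 3 h to 24 h was −1.82 in saline (adjusted p = 0.125) and 0.33 in Dex (adjusted p = 0.602). Reads of Hspa1a can be shared with its near-identical copy Hspa1b. The adjusted p of its time contrast was 0.0522 to 0.151 without any of 6 single libraries, highest without WT saline 3 h replicate 3. Tnfrsf12a (Fn14), the receptor for TWEAK, had a time contrast of 2.10 ± 0.689 (adjusted p = 0.0323). The adjusted p was 0.0537 to 0.077 without any of 7 single libraries, WT Dex 24 h replicate 5 among them (0.0718). The log2 change of Tnfrsf12a over time was −1.32 in saline (adjusted p = 0.258) and 0.78 in Dex (adjusted p = 0.185). Without the libraries of the separate number series, the time contrast was 2.04 for Hspa1a (adjusted p = 0.0674) and 1.52 for Tnfrsf12a (adjusted p = 0.114).

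Late genes that fell numbered 356, with a median log2 effect of −0.731 at 24 h and 0.178 at 3 h. Matrix genes, macrophage genes and antigen presentation genes of MHC class II are among them. Col3a1, a fibrillar collagen chain, had 70.6, 78.1, 77.5, 99.8 and 94.2 CPM in Dex and 249, 108, 283 and 177 CPM in saline at 24 h. At 3 h Col3a1 had 427, 444, 354, 400 and 155 CPM in Dex and 317, 361 and 313 CPM in saline. The groups were apart at 24 h and overlapped at 3 h. The effect was −1.28 ± 0.241 at 24 h and 0.11 ± 0.262 at 3 h, and the time contrast −1.39 ± 0.361 (adjusted p = 0.00627). Fn1, fibronectin, had 111 to 154 CPM in Dex and 194 to 303 CPM in saline at 24 h, and its time contrast was −0.88 ± 0.182 (adjusted p = 0.000741). Postn, the matricellular protein periostin, had effects of −1.32 ± 0.272 at 24 h and 0.33 ± 0.29 at 3 h. The proteoglycan Bgn had −0.75 ± 0.158 and 0.28 ± 0.174, and Sfrp2, a secreted modulator of Wnt signalling, −1.91 ± 0.278 and 0.42 ± 0.304 at the same times.

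Genes of MHC class II presentation stood lower at 24 h alone. H2-Aa, H2-Ab1, H2-Eb1 and the invariant chain Cd74 were chosen after their values were seen. For H2-Aa the levels at 24 h were 14.1, 14.8, 13.7, 15.8 and 9.5 CPM in Dex and 38.5, 40.9, 37.1 and 27.2 CPM in saline. At 3 h they were 24.9, 37.5, 39.6, 39.3 and 26.2 CPM in Dex and 39, 33.4 and 33.7 CPM in saline. Dex and saline were apart at 24 h and overlapped at 3 h, with a time contrast of −1.33 ± 0.308 (adjusted p = 0.00246). The time contrast was −1.32 ± 0.338 for H2-Ab1, −1.50 ± 0.3 for H2-Eb1 and −1.44 ± 0.29 for Cd74. Csf1r, the receptor for the macrophage growth factor CSF1, had 32.3 to 36.7 CPM in Dex and 41.6 to 64.6 CPM in saline at 24 h, and 37.2 to 51.4 CPM in Dex and 34.4 to 38.5 CPM in saline at 3 h. Its time contrast was −0.81 ± 0.156 (adjusted p = 0.000294).

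The clock repressor Per2, unlike Per1, had no call at 3 h. Its levels were 14, 12.6, 12.9, 10.9 and 13.6 CPM in Dex and 39.1, 47.3, 45.9 and 33.2 CPM in saline at 24 h. At 3 h Per2 had 19.7, 20.2, 35.5, 31.5 and 38.4 CPM in Dex and 23.7, 29.6 and 30.2 CPM in saline. The 24 h groups were far apart and the 3 h groups overlapped, with a time contrast of −1.76 ± 0.269 (adjusted p = 1.36e-05). Arc, an activity-regulated cytoskeletal gene, had effects of −1.41 ± 0.344 at 24 h and 0.93 ± 0.346 at 3 h. Thrsp, a lipogenic protein, had −1.62 ± 0.354 and 0.41 ± 0.387, the cell adhesion molecule Cdh4 −1.43 ± 0.293 and 0.53 ± 0.313, and Golga7b −1.66 ± 0.3 and 0.58 ± 0.33 at the same times. Mybph, a myosin-binding protein, had −1.46 ± 0.287 and 0.63 ± 0.316, and 49.9% of its exon bases are shared with Adora1.

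Persisting genes numbered 159, of which 92 were above saline at both times (median log2 effect 0.574 at 24 h and 0.678 at 3 h) and 67 below (−0.751 at 24 h and −0.829 at 3 h). A missing call in the time contrast does not show that the effects were equal. Cdkn1a, the cell-cycle inhibitor p21, had 186, 125, 110, 131 and 55.8 CPM in Dex and 31.4, 20.1, 9.52 and 10.2 CPM in saline at 24 h. At 3 h Cdkn1a had 143, 182, 121, 130 and 81.5 CPM in Dex and 27.4, 19.9 and 9.99 CPM in saline. The groups were apart at both times, and the effects were 2.77 ± 0.382 at 24 h and 2.78 ± 0.43 at 3 h. Lcn2, the secreted iron-siderophore binder lipocalin 2, had 99.6, 53.4, 43.2, 51.7 and 95.5 CPM in Dex and 1.26, 3.22, 1.37 and 2.23 CPM in saline at 24 h. At 3 h Lcn2 had 22.3, 56.3, 22, 20.5 and 45.7 CPM in Dex and 0.723, 0.549 and 0.991 CPM in saline. Dex was above saline without overlap at both times, with effects of 5.09 ± 0.416 at 24 h and 5.45 ± 0.529 at 3 h. Within Dex the level at 24 h was above that at 3 h by a log2 change of 1.04 (adjusted p = 0.00796). The saline level was higher at 24 h as well, at 1.26 to 3.22 CPM against 0.549 to 0.991 CPM at 3 h. The rise within Dex is therefore not a stronger effect over saline at 24 h.

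The acute-phase gene Orm3 had effects of 5.70 ± 0.595 at 24 h and 6.65 ± 0.696 at 3 h, with saline libraries at 0.0911 to 0.355 CPM. Pnmt, the enzyme that makes adrenaline, had 2.84 ± 0.453 at 24 h and 4.68 ± 0.59 at 3 h, and its time contrast of −1.84 ± 0.793 was not called (adjusted p = 0.112). The metallothionein Mt2 had 2.19 ± 0.354 and 2.94 ± 0.389, with 73.5% of its exon bases shared with another annotated gene. Among the persisting genes below saline are the interferon-induced GTPases Iigp1, with −1.08 ± 0.292 at 24 h (adjusted p = 0.0637 without the separate number series) and −1.79 ± 0.314 at 3 h, and Gbp3, with −1.01 ± 0.185 and −1.49 ± 0.203. The MHC class I activator Nlrc5 had −0.82 ± 0.204 and −0.81 ± 0.214, but leaving out WT saline 3 h replicate 1 gave an adjusted p of 0.197 at 3 h. The clock output factor Dbp had 38.9 to 48.9 CPM in Dex and 72.2 to 92.5 CPM in saline at 24 h, and 12.3 to 40.1 CPM in Dex and 48 to 59.7 CPM in saline at 3 h. The 24 h effect of Dbp had an adjusted p of 0.0681 without WT saline 24 h replicate 3 and of 0.0535 without WT Dex 24 h replicate 3. Hk2, the hexokinase of insulin-sensitive muscle, had effects of −0.81 ± 0.161 and −0.83 ± 0.172 without overlap at either time, and an adjusted p of 0.0523 at 3 h without WT saline 3 h replicate 3. The growth factor Nrg4 had −0.93 ± 0.282 and −1.52 ± 0.317. Its 24 h effect had an adjusted p of 0.0651 with the 17 WT libraries alone, and of 0.0986, 0.095, 0.0776 and 0.0723 when saline 24 h replicate 2, saline 24 h replicate 4, Dex 24 h replicate 3 and Dex 24 h replicate 4 of WT were left out in turn.

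Of the 30 weakened genes, 18 were above saline and 12 below it at both times, with the smaller effect at 24 h. Cebpd, a C/EBP transcription factor of the atrophy and acute-phase responses, had effects of 1.01 ± 0.335 at 24 h and 3.65 ± 0.431 at 3 h. Gadd45g, a stress-induced growth inhibitor, had 0.69 ± 0.237 and 3.47 ± 0.301, with a rise of 1.33 over time in saline alone (adjusted p = 0.0216). The zinc and iron importer Slc39a14 had 0.86 ± 0.208 and 2.64 ± 0.246, the metallothionein Mt1 1.31 ± 0.289 and 2.95 ± 0.342, Greb1 1.95 ± 0.344 and 3.94 ± 0.38, and Apbb3 1.42 ± 0.172 and 3.4 ± 0.207 at the same times. Below saline, Gbp4 had 8.21, 7.64, 10.8, 10.4 and 5.4 CPM in Dex and 19.5, 13.1, 16.5 and 18.7 CPM in saline at 24 h. At 3 h Gbp4, an interferon-induced GTPase, had 2.97, 1.95, 1.67, 1.91 and 1.78 CPM in Dex and 20.2, 24.9 and 9.53 CPM in saline. The Dex libraries were below saline at both times, and furthest at 3 h. The monocyte chemokine receptor Ccr2 had effects of −0.62 ± 0.188 at 24 h and −2.11 ± 0.21 at 3 h, the immune checkpoint ligand Cd274 (PD-L1) −0.61 ± 0.139 and −2.07 ± 0.158, and the myogenic factor Myod1 −0.80 ± 0.214 and −1.93 ± 0.243. The time contrast had an adjusted p of 0.0508 for Myod1 without WT saline 3 h replicate 1, and of 0.0536 for Greb1 with limma-voom.

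The 3 strengthened genes were Ptprf, a receptor tyrosine phosphatase, Tmem38b, a cation channel of the sarcoplasmic reticulum, and Itgax, the integrin CD11c of myeloid cells. Itgax is named because the class is so small and was chosen after its values were seen. Ptprf had 41.5, 34, 29.4, 31.6 and 32.2 CPM in Dex and 4.75, 4.93, 5.21 and 4.24 CPM in saline at 24 h. At 3 h it had 22.7, 24.8, 25.8, 18.2 and 22.4 CPM in Dex and 5.47, 5.02 and 4.23 CPM in saline. Dex was above saline without overlap at both times, with effects of 2.81 ± 0.132 at 24 h and 2.21 ± 0.146 at 3 h (time contrast adjusted p = 0.0232). Effects were 0.78 ± 0.1 at 24 h and 0.32 ± 0.109 at 3 h for Tmem38b, and −2.07 ± 0.268 and −0.90 ± 0.252 for Itgax. None of these 3 time contrasts was called when WT saline 3 h replicate 2 was left out, where the adjusted p was 0.0579 for Ptprf, 0.0648 for Tmem38b and 0.0678 for Itgax.

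Gene lists describe how the time contrast ran through known pathways, and they are given as counts beside the 8.89% of all genes called higher, the 8.23% called lower and the median of −0.014. The list members were chosen with earlier results of these data known. Counts that depart from these shares can in part come from that choice, which was not tested. Of 34 tested glucocorticoid receptor targets, 25 rose and 0 fell at 3 h, while at 24 h 9 rose and 6 fell. Of all genes 6.77% rose and 6.98% fell at 24 h, and 6.77% rose and 8.16% fell at 3 h. In the time contrast 19 were lower and 1 higher, with a median of −1.103. By class, 6 turned, 11 faded and 5 persisted. Inflammation and NF-kB genes went the other way, with 10 of 23 higher and 2 lower (1 without WT saline 3 h replicate 2) in the time contrast and a median of 1.031. At 3 h 12 of them fell and 3 rose, and at 24 h 3 fell (1 without WT saline 24 h replicate 3) and 1 rose. Of 20 myogenic and satellite cell genes, 7 were higher and 0 lower (median 0.593), with 5 rises and 2 falls at 24 h and 8 falls at 3 h. The rises at 24 h numbered 2 without WT saline 24 h replicate 4 and 3 without WT Dex 24 h replicate 3, and the falls at 24 h 0 without WT saline 24 h replicate 2. Of 29 interferon and antigen presentation genes, 15 fell at 24 h and 17 fell at 3 h, and 0 rose at either time. In their time contrast 6 were higher and 4 lower, and by class 7 persisted, 2 weakened, 4 faded and 4 were late.

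Among the lists of muscle protein breakdown, 7 of 20 atrophy genes rose and 1 fell at 24 h, and 5 rose and 2 fell at 3 h. The falls at 3 h numbered 1 when any of WT Dex 3 h replicates 2, 3 and 5 or WT saline 3 h replicates 1 and 2 was left out. Their summed level was 3553 to 6534 CPM in Dex 24 h, 2529 to 3528 in saline 24 h, 3680 to 4559 in Dex 3 h and 3639 to 4169 in saline 3 h, apart at 24 h and overlapping at 3 h. In the time contrast 3 atrophy genes were higher and 4 lower (35% called, median 0.079), with Fbxo32 and Fbxo30 among the higher and Foxo1 and Cebpd among the lower. Of 32 proteasome genes 2 were higher and 0 lower (median 0.087), with 9 rises at 24 h and 1 at 3 h. With library totals in place of TMM, 4 rose at 24 h and 0 at 3 h. The summed proteasome level was 4485 to 4876 CPM in Dex 24 h and 3924 to 4088 in saline 24 h, without overlap. Without the 5 libraries of the separate number series 17 rose at 24 h and 5 at 3 h, and 5 were higher in the time contrast, while 1 was without WT saline 3 h replicate 1. For heat shock genes, 8 of 21 rose at 24 h (5 without the separate number series) and 0 at 3 h, and 2 were higher in the time contrast, but 0 without that series, WT saline 3 h replicate 3, WT saline 24 h replicate 3 or WT Dex 3 h replicate 4, 1 without WT Dex 24 h replicate 1, 4 or 5 or WT saline 24 h replicate 4, and 5 without WT Dex 3 h replicate 5. Of 23 autophagy and lysosome genes, 2 were higher and 2 lower. Insulin, IGF1 and mTOR genes had 5 of 28 higher and 2 lower, the higher including Irs1, Pik3ca and Ddit4l and the lower Ddit4. The higher autophagy genes numbered 1 without WT saline 3 h replicate 2, and the lower insulin genes 1 without WT saline 3 h replicate 1 or 2, WT Dex 3 h replicate 3 or WT saline 24 h replicate 2. Of 23 amino acid genes 2 were higher and 4 lower, of 12 polyamine and metallothionein genes 1 and 2, and of 30 genes of glucose and fatty acid use 4 and 5. Without most single libraries 1 amino acid gene was higher, and without WT saline 3 h replicate 3 no polyamine or metallothionein gene was. Neither the 28 respiratory chain genes (median −0.258) nor the 14 mature muscle fibre genes (median −0.091) had a call in the time contrast. Without WT Dex 24 h replicate 5, 4 respiratory chain genes (median −0.361) and 1 fibre gene were lower.

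Among signalling and cell-cycle lists, 3 of 26 immediate early genes were higher and 8 lower in the time contrast. At 3 h 6 of them rose and 6 fell, and 1 fell without WT saline 3 h replicate 3. Of 18 clock genes 4 were higher and 2 lower, of 21 cell-cycle inhibitors and p53 targets 5 and 5, and of 28 genes of Wnt, Notch and BMP signalling 6 and 6. The extracellular matrix list had 0 of 28 higher and 6 lower in the time contrast, with 12 falls at 24 h (7 without WT saline 24 h replicate 3) and 0 at 3 h. In saline alone, 5 of the matrix genes were lower at 24 h than at 3 h and 0 higher.

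**Figure D3:**
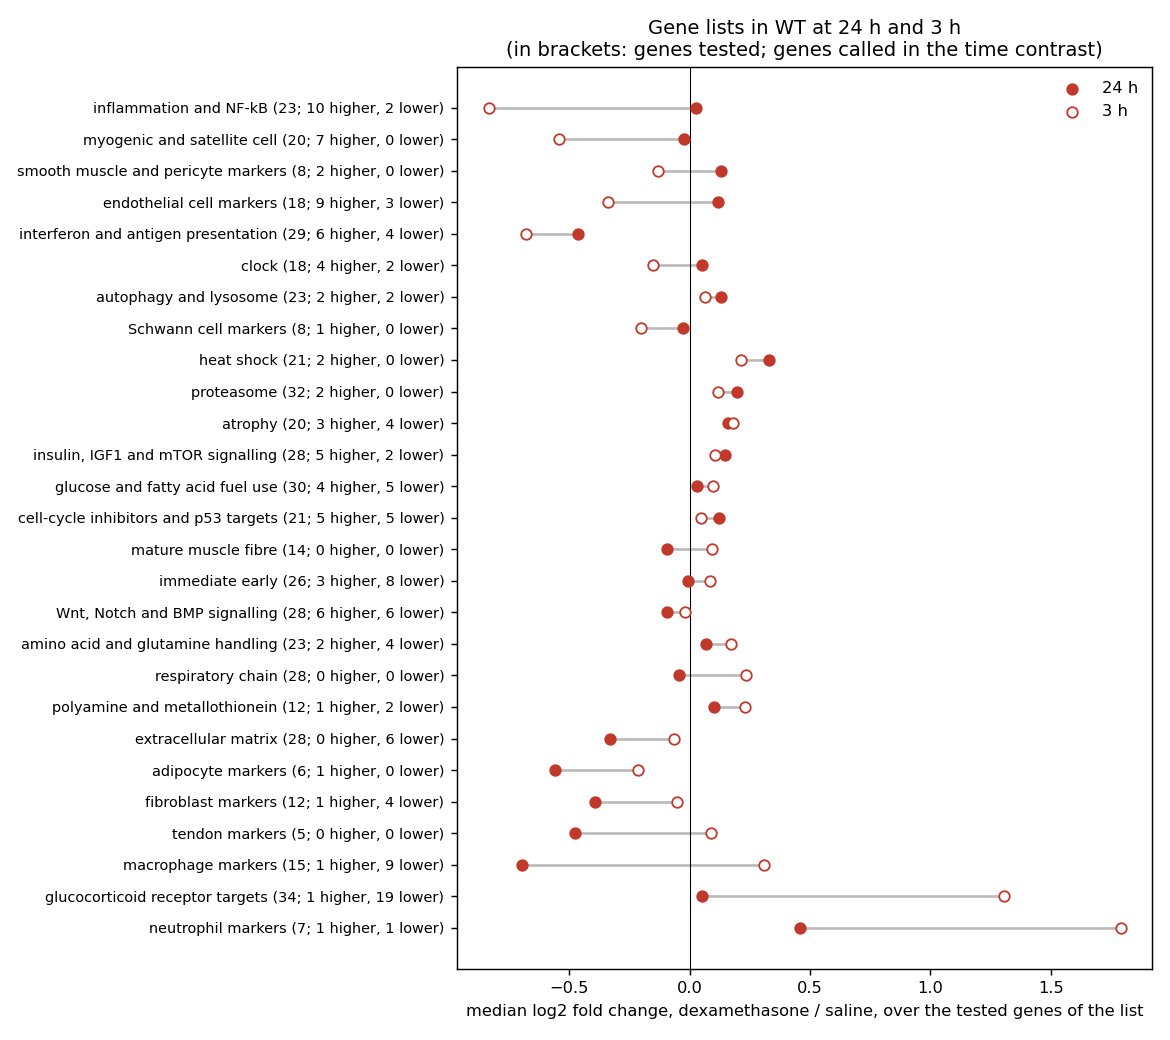
Median log2 fold change of dexamethasone over saline in WT at 24 h (filled points) and 3 h (open points) over the tested genes of each list with at least 5 tested, ordered by the median time contrast, with the number tested and the numbers called higher and lower in the time contrast in brackets. The glucocorticoid receptor targets have medians of 0.051 at 24 h and 1.305 at 3 h, and the inflammation list 0.025 at 24 h and −0.835 at 3 h.

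Markers of other cell types were measured beside these groups. Of 15 tested macrophage markers 9 were lower and 1 higher in the time contrast (median −0.811), with 10 falls at 24 h and 3 rises at 3 h (5 without WT Dex 3 h replicate 1). The falls at 24 h numbered 3 without WT saline 24 h replicate 2, whose summed macrophage level, 437.3 CPM, was the highest of its group. Over 14 of these markers the summed level was 178.8 to 204.2 CPM in Dex 24 h, 244 to 437.3 in saline 24 h, 210.9 to 359.1 in Dex 3 h and 217.7 to 237.6 in saline 3 h, so that Dex and saline were apart at 24 h and overlapped at 3 h. Fibroblast markers summed to 1268 to 1443 CPM in Dex 24 h, 1587 to 2068 in saline 24 h, 1415 to 2144 in Dex 3 h and 1821 to 2102 in saline 3 h, with 1 of 12 higher and 4 lower in the time contrast. At 24 h the fibroblast sums of Dex and saline did not overlap, and at 3 h they did. The fibroblast sum includes Col1a1, Col1a2 and Col3a1, which are also in the matrix list, so it is not a measure apart from the matrix genes. The part of the macrophage and fibroblast levels in the fall of matrix and MHC class II genes at 24 h was not tested.

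For endothelial markers, 9 of 18 were higher and 3 lower in the time contrast (median 0.377), and at 3 h 10 fell and 2 rose. Their summed level was 596.9 to 725.3 CPM in Dex 24 h, 601.1 to 710.9 in saline 24 h, 563.7 to 696.4 in Dex 3 h and 685 to 836.7 in saline 3 h, so Dex and saline overlapped at both times, and its part in the results on endothelial genes was not tested. In the time contrast 1 of 7 neutrophil markers was higher and 1 lower, of 8 smooth muscle and pericyte markers 2 were higher, of 8 Schwann cell markers 1, of 6 adipocyte markers 1, and of 5 tendon and 2 lymphocyte markers 0. The 1 tested erythroid marker was lower. Neither the lower neutrophil marker nor the erythroid marker was called with the 17 WT libraries alone. The neutrophil call was also lost when any of WT saline 3 h replicates 1, 2 and 3, Dex 3 h replicate 5, saline 24 h replicates 2 and 3 or Dex 24 h replicates 1, 2, 3 and 4 was left out. The erythroid call was lost without the separate number series. It was also lost when any of WT saline 3 h replicates 1 and 3, Dex 3 h replicate 5 or Dex 24 h replicate 3 was left out. Without replicate 2 of WT saline 3 h or of WT saline 24 h, 1 smooth muscle marker was higher. Summed lymphocyte markers were at 0.1959 to 0.9152 CPM over all WT libraries, near 0.

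For most genes called in the time contrast, the fitted change over time was larger within Dex than within saline. Between 24 h and 3 h, 3918 genes (28.1%) were called in Dex and 82 (0.588%) in saline, of which 23 were higher and 59 lower at 24 h. The saline count rests on single libraries, with 9 without WT saline 3 h replicate 3, 35 without replicate 1 and 33 without replicate 2 of that group, and 214, 20, 38 and 23 without replicates 1, 2, 3 and 4 of saline 24 h. It was 205 with DESeq2 and 344 with limma-voom. Dex had 5 libraries at each time and saline 4 at 24 h and 3 at 3 h, a difference that also bears on the number of calls. Of the 2388 genes called in the time contrast, 51 were also called in saline, and for 385 the fitted change in saline was larger than that in Dex. The share with the larger change in saline differed by class. It was 6.1% of the turned, 10.7% of the faded and 19.8% of the late genes, and 31.8% of the 343 called genes outside the classes. The saline change ran against the Dex change in the medians of the turned genes. They were 0.208 in saline and −1.53 in Dex for those up at 3 h, and −0.343 in saline and 0.952 in Dex for those down at 3 h. The time contrast is the Dex change minus the saline change, so sorting genes by it favours opposite signs. Genes with no call showed this too. Their medians were −0.081 in saline and 0.117 in Dex where the time contrast was positive, and 0.119 and −0.095 where it was negative. Among turned genes 15 of 213 had a called saline change, 11 of them among the 85 that were down at 3 h, Nr1d1 and Kdr included. Clock hour and time since injection cannot be told apart from these libraries.

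**Figure D4:**
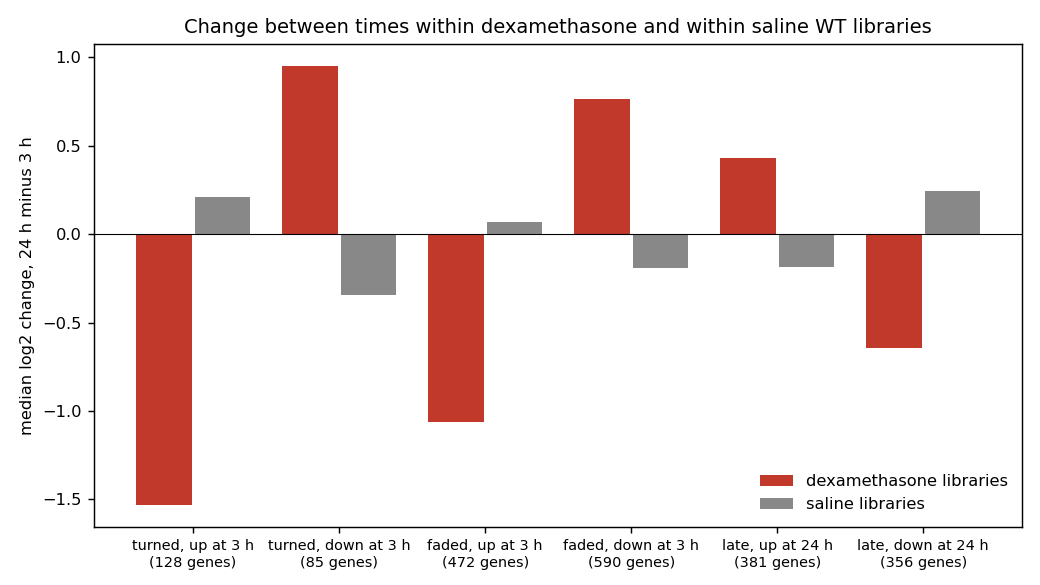
Median log2 change between 24 h and 3 h (24 h minus 3 h) within Dex and within saline WT libraries, over the genes of each class and direction. The Dex bars reach −1.53 for the 128 turned genes up at 3 h and the saline bars stay between −0.343 and 0.245.

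The KO libraries, whose levels did not sort the genes, give the same contrast in other samples of the series. All 33 libraries share 1 estimate of each gene's spread in the model. In KO the time contrast was called for 1511 genes (10.8%). All 213 genes that turned in WT had the same sign of the time contrast in KO, as did 1051 of 1062 faded and 717 of 737 late genes, beside 7111 of the 10014 genes with no call in WT. It was called in KO with the same sign for 179 turned (84%), 639 faded (60.2%) and 271 late genes (36.8%), and with the opposite sign for 0 of each. In KO 5.87% of genes rose and 5.02% fell at 24 h, 9.02% rose and 8.51% fell at 3 h, and 5.15% were higher and 5.68% lower in the time contrast. By the same class rules, 51 of the 213 turned genes also turned in KO and 108 faded there. Of the faded genes 574 faded in KO, of the late genes 194 were late, and of the 159 persisting genes 75 persisted. For the 128 turned genes that rose at 3 h in WT, the median effect was −0.404 at 24 h and 0.94 at 3 h in KO. For single genes, the KO time contrast was −5.69 ± 0.465 for Ddit4, 2.79 ± 0.533 for Pfkfb3, −3.30 ± 0.241 for Nfkbia and 1.46 ± 0.434 for Fbxo32. Tmem100, with 1.66 ± 0.305 in WT, had −0.24 ± 0.364 in KO (adjusted p = 0.771), and Nr4a3, with 3.97 ± 1.04 in WT, had 0.22 ± 0.926 (adjusted p = 0.926). The difference between the WT and KO time contrasts was called for 0 genes by edgeR, DESeq2 and limma-voom, and had an unadjusted p under 0.05 for 336 in edgeR. A missing call does not show that the genotypes were alike.

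**Figure D5:**
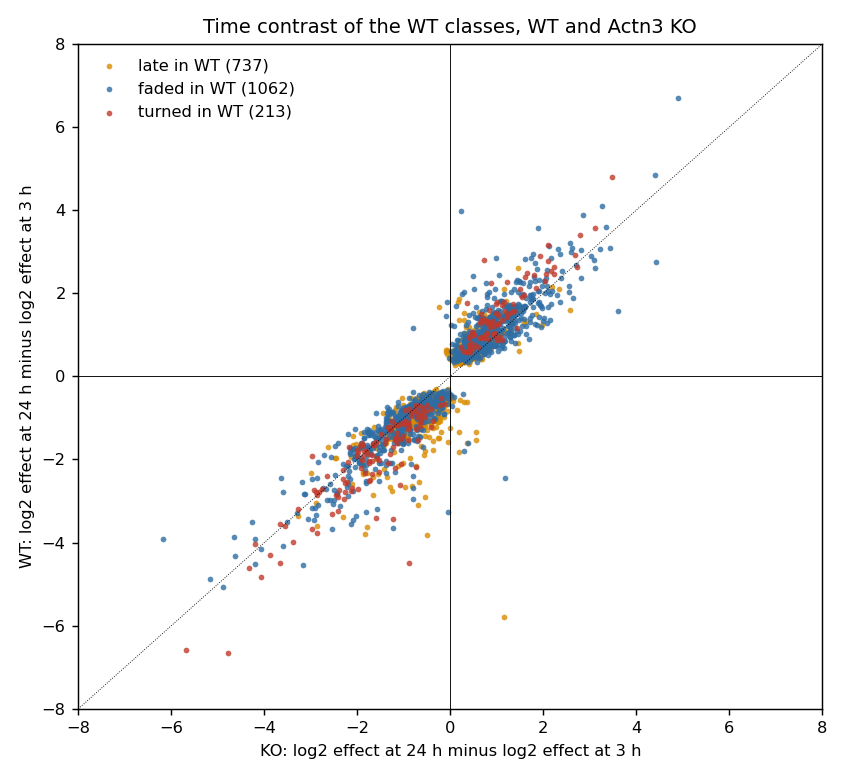
Time contrast in WT (vertical axis) against that in Actn3 KO (horizontal axis), both on the log2 scale, for the genes that turned (213), faded (1062) or appeared late (737) in WT, with the dotted line marking equal values. Points gather in the lower left and upper right, and all 213 turned genes have the same sign in both genotypes.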

How the data were processed

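RNA was sequenced from whole quadriceps in 33 libraries of WT and Actn3 KO mice, and the deposited files hold raw gene counts per library. Per the submitters' processing notes, STAR, HTSeq, limma 3.40.6 and the mm10 build were used, with no role or order given. Per the labels' protocols the library kit did not keep strand, so reads of overlapping or antisense genes cannot be told apart. Rows that name no gene were left out; reads in no feature made 26.8 to 33.2% in WT libraries. Of 23420 genes, 13955 passed edgeR's filterByExpr over the 8 groups. All 33 libraries entered 1 model, with group means as terms, in edgeR 4.0.16 in R 4.3.3 (TMM scaling, quasi-likelihood test, Benjamini-Hochberg over all genes tested). SE values come from the fitted log2 changes. DESeq2 1.42.0, limma-voom (limma 3.58.1), other scalings, filters, thresholds and samples were alternatives. On simulated data the time contrast test found 80% of 100 genes changed 2-fold and 30% of 100 changed 1.5-fold, with 5 false calls (4.35%).

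Genes named had a mean log2 CPM of at least 1 in WT and no clone-type symbol: up to 10 per direction of the turned, faded and late classes, 6 of the weakened and strengthened, 8 of the persisting, and 4 per list, from which the text takes a selection. The members and the 29 lists (533 genes, 513 tested) were chosen with earlier results of these data known. Promoters came from RefSeq; 11029 of 13955 tested genes (79.0%) had one, so shares of motifs by class are void and not given. Some genes are not reported here, and they were left out of the summed levels of marker lists.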

Additional observations from a re-analysis of the deposited data

Results flagged for a closer look

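The Dex effect at 24 h differed from that at 3 h for 2388 genes by edgeR's test of the difference itself, which is the comparison described above. Single libraries that lay far from the rest of their group were looked for in 306 combinations of 102 named genes and groups of 4 or 5 libraries, and 25 were found. Chance marks about 1 in 20 groups.

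WT Dex 3 h replicate 2 accounts for 9 of the 25, all of them higher than the other 4 Dex libraries. Its levels were 16 CPM for Cd14 (4.24 to 5.17 in the others), 244 for Rhob (143 to 161), 24.7 for Nr4a3 (3.83 to 7.62), 19 for Tnfrsf12a (7.33 to 9.87) and 7.11 for Arc (3.76 to 4.21). They were 54.9 for Postn (15.5 to 21.6), 175 for Bgn (106 to 123), 238 for Mt1 (83 to 103) and 211 for Mt2 (68 to 94.5).

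WT Dex 24 h replicate 5 accounts for 6. It was lower than the other 4 libraries for Fbxo32 (603 CPM, others 1929 to 2459), Ddit4l (219, others 461 to 551), Cd74 (19.1, others 30.9 to 34.6) and H2-Ab1 (7.23, others 12.1 to 13.8). It was higher for Icam1 (6.22, others 3.23 to 3.85) and Tnfrsf12a (36.5, others 9.46 to 17).

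Among the other Dex 3 h libraries, replicate 1 had 2.97 CPM of Gbp4 (others 1.67 to 1.95) and 1.2 of Ccr2 (others 2.12 to 2.42), replicate 3 had 7.3 of Golga7b (others 3.45 to 4.21) and replicate 4 had 42.3 of Cdh4 (others 18.2 to 25.1). Replicate 5 had 22.6 CPM of Tmem100 (others 9.43 to 12.1), 91.1 of Gadd45g (others 121 to 128) and 129 of Tmem38b (others 82.4 to 94.9). In saline at 24 h, replicate 1 had 45.3 CPM of Ppara (others 28.7 to 30.6), replicate 3 had 7.82 of Sfrp2 (others 3.24 to 3.74) and replicate 4 had 8.98 of Cd274 (others 8.12 to 8.2).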

How the results depend on the processing

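No paired analysis was possible because shared replicate numbers are missing from the labels. The counts moved most with limma-voom and with the threshold. With limma-voom and sample weights, the time contrast was called for 3613 genes, the 24 h effect for 3001 and the 3 h effect for 3234, and 419 genes turned, 1249 were late and 317 persisted. At a false discovery rate of 0.01 these were 1359 genes in the time contrast and 937 at 24 h, with 94 turned, 324 late and 83 persisting. With a change of at least 2-fold also required, 1055, 331 and 812 genes were called in the time contrast, at 24 h and at 3 h, and 38 turned, 529 faded, 132 were late and 35 persisted. Leaving out 1 WT library at a time gave 1745 to 2751 genes for the time contrast, 1257 to 2273 at 24 h, 1518 to 2149 at 3 h, 138 to 266 turned, 782 to 1057 faded, 494 to 967 late and 114 to 169 persisting. Without the 5 libraries of the separate number series, 2847 genes were called in the time contrast, 2192 at 24 h and 2757 at 3 h, and 286 turned. The cause was not tested.

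Over 166 values of 150 named genes no setting reversed a direction. These genes were chosen by their effects or p-values in the same libraries, and every setting reused most or all WT libraries. A reversal was therefore unlikely from the start, and its absence says little. A call was lost in 15 of the values recomputed under other settings (1147 kept theirs) and in 75 of those with 1 library left out (2747 kept theirs). With library totals alone, 58.2% of the time contrast calls were higher, against 51.9% with TMM. In the simulated data 30% of the genes changed 1.5-fold were recovered. Only 100 of 13955 genes were changed at each fold there, beside 2388 called in the data, which makes the adjusted p stricter. The number of saline libraries was not varied, so the simulation does not give the recovery of small changes in the data.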
